A study of Mus musculus with 9 samples.

Results

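Mup1, Mup3, Mup7, Mup20 and Mup21 are major urinary protein genes, and their transcripts were followed in mouse liver. They were taken by name, and all 5 were found among the 27945 genes with a count, which include 16 other genes named Mup and a number and 18 Mup pseudogenes. The names were chosen with the levels in these libraries known, so the values of the 5 genes are given as descriptions, with no p-value. Polyadenylated RNA labelled as liver was sequenced in 9 libraries, 3 labelled treated, 3 labelled model and 3 labelled control. The title of the series names liver damage caused by gefitinib, a drug that blocks signalling by the epidermal growth factor receptor. Dose, duration, sex, strain and age are not in the labels, and neither is the agent given to the treated group or whether each library stands for its own mouse. The sample titles speak of mouse liver cells and the source field of liver, and no label says whether cells were isolated from the tissue, so "livers" is used here for the samples of a group. The p-values given for other genes therefore measure the spread between these libraries, which may be technical.

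Major urinary proteins are small lipocalins, barrel-shaped carriers with a pocket for hydrophobic molecules. Mouse hepatocytes secrete them into the blood, the kidney passes them into urine, and there they bind and slowly release volatile pheromones. The genes form a cluster of tandem copies, many of them almost identical in sequence. In mouse liver their transcription is known to depend on pulses of growth hormone acting through STAT5, and on androgen, thyroid hormone and glucocorticoid, and it is higher in males than in females.

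All 5 genes lie on chromosome 4 of build GRCm38, on the minus strand. In the files' coordinates Mup7 is at chr4:60066469-60070475, Mup1 at chr4:60498012-60501960, Mup20 at chr4:62050234-62054158, Mup3 at chr4:62083476-62087342 and Mup21 at chr4:62147932-62150863. Mup7 and Mup1 thus lie in the early part of the array among near-identical copies, and Mup20, Mup3 and Mup21 stand next to each other at its far end. The stretches that follow are 90 coding bases of the main transcript of each gene, from GENCODE M21, and they are shown because they let the eye see how far apart the copies are. Each stretch runs over a splice junction, with 84 bases in one coding exon and the rest in the next, and capitals mark bases that differ from Mup1.

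Mup1: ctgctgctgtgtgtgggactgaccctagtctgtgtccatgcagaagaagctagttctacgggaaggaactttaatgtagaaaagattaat
Mup7: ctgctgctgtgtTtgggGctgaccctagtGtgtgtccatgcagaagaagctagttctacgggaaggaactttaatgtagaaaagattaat
Mup20: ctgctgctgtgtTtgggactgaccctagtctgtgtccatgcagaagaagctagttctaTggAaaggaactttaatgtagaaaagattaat
Mup3: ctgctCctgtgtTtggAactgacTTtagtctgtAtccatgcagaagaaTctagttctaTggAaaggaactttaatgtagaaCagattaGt
Mup21: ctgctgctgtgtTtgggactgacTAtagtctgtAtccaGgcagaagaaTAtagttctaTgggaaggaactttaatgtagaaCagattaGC

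In genome coordinates these stretches span chr4:60501410-60501837 for Mup1, chr4:60069861-60070288 for Mup7, chr4:62053608-62054034 for Mup20, chr4:62086928-62087207 for Mup3 and chr4:62150323-62150737 for Mup21. Mup7 and Mup20 differed from Mup1 at 3 of the 90 bases, and Mup3 and Mup21 at 11. Over the aligned coding bases, leaving out gaps, Mup1 and Mup7 were 98.9% identical, Mup3 and Mup21 96.3%, and Mup1 and Mup3 85.5%. The coding sequence used for Mup7 has 705 bases, against 540 for Mup1. Their alignment holds 165 gap bases, which the 98.9% leaves out. Mup20 was 91.1% identical to Mup1 and 89.1% to Mup3, although in the 90 bases alone it is as close to Mup1 as Mup7 is. By these identities the 5 genes fall into close copies of the common type (Mup1, Mup7), an intermediate one (Mup20) and a diverged pair (Mup3, Mup21).

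That difference bears on how well each gene can be measured. Of the other 16 numbered genes, 14 were at least 95% identical to Mup1 and 14 to Mup7, and none of the 16 reached that value with Mup3, Mup20 or Mup21. With gaps again left out, Mup1 differed from its nearest other copies, Mup11 and Mup12, at 2 coding bases, and Mup7 differed from Mup12 at 4. When transcripts were cut into windows of 100 bases, 96.9% of the windows of Mup3, 95.5% of Mup21 and 61.2% of Mup20 were found in no other gene, against 18.4% for Mup7, 12.8% for Mup1 and a median of 15.5% for the other 16. The read length is not given in the sources used here, and with 50-base windows the values were 83.4% for Mup3, 80.7% for Mup21, 49.5% for Mup20, 9.76% for Mup7 and 5.24% for Mup1. Reads of Mup1 and Mup7 were divided among copies by the authors' estimation, so their values are uncertain. The sum over the family would be free of that division if each read was counted once within the family. Whether this was so cannot be checked here.

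Library totals ran from 56440871 to 60665156 estimated counts. Summed over 9 markers, hepatocyte transcripts were at 89230 to 108538 CPM in treated, 110519 to 113860 CPM in model and 105689 to 120768 CPM in control livers, where CPM are counts scaled to a common library size after TMM, a trimmed mean of gene ratios. Transcripts of 7 skeletal muscle markers summed to 99.1 to 138 CPM in the treated libraries and 158 CPM in model replicate 1, against at most 1.27 CPM in the other 5 libraries. The 6 endothelial markers summed to 45.0 to 62.8 CPM in treated, 81.3 to 99.9 CPM in model and 217 to 256 CPM in control livers. The 4 neutrophil markers summed to 4.24 to 101 CPM in treated, 8.14 to 17.8 CPM in model and 1.27 to 2.88 CPM in control livers, and the 6 macrophage markers to 207 to 366, 185 to 243 and 133 to 221 CPM in that order. The 5 lymphocyte markers summed to 1.80 to 4.998 CPM in treated, 7.21 to 8.32 CPM in model and 2.46 to 8.002 CPM in control livers. The 6 stellate markers summed to 210 to 224 in treated, 118 to 148 in model and 165 to 210 CPM in control livers. For the 5 cholangiocyte markers the sums were 34.4 to 59.9, 22.2 to 46.7 and 26.6 to 43.5 CPM in that order. In bulk RNA, fewer cells of a type and less RNA per cell cannot be told apart, and the part of these marker differences in the levels of the Mup genes and of the other genes described was not tested.

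All 5 genes had their highest mean in control livers, a lower mean in model livers and their lowest mean in treated livers. Mup3, one of the diverged pair, had the lowest coefficient of variation of the 5 when averaged over the groups. Its level was 1112, 2317 and 2265 CPM in treated replicates 1, 2 and 3, 4244, 2942 and 4019 CPM in the model libraries, and 6595, 7531 and 7069 CPM in the control libraries. No 2 of the 3 groups overlapped, and the control libraries lay within 1.14 times of each other. The log2 fold change of Mup3 was -0.98 (SE 0.26) in treated versus model, -1.90 (SE 0.26) in treated versus control and -0.92 (SE 0.26) in model versus control. The pair of main Mup3 transcripts, of 916 and 938 bases, held similar deposited values in each library, at 557 and 636 FPKM in treated replicate 1 and 3071 and 2987 FPKM in control replicate 1, where FPKM are fragments per kilobase of transcript scaled to library size. Both transcripts of Mup3 had lower values in treated than in control replicate 1.

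Mup20 encodes darcin, an atypical urinary protein known as a male pheromone that makes the scent of a male attractive to females and memorable. Its level was 455, 925 and 744 CPM in the treated libraries, 1481, 749 and 985 CPM in the model libraries, and 1914, 2001 and 1621 CPM in the control libraries. Every control library was above all the others, while treated and model overlapped, because model replicate 2 was below treated replicate 2 and close to treated replicate 3. The log2 fold change was -0.60 (SE 0.29) in treated versus model, -1.38 (SE 0.29) in treated versus control and -0.78 (SE 0.29) in model versus control. Without model replicate 1, which like the treated libraries held muscle transcripts, the fold change of Mup20 in treated versus model was -0.29. Of the 5 genes, Mup20 had the smallest fold change in each comparison.

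Mup21, the diverged partner of Mup3, was the least abundant of the 5. It was at 11.1, 15.5 and 18.0 CPM in the treated libraries, 100, 19.7 and 109 CPM in the model libraries, and 161, 332 and 464 CPM in the control libraries. The groups did not overlap, but model replicate 2, at 19.7 CPM, lay next to the highest treated library and far from its own group. The log2 fold change of Mup21 was -2.36 (SE 0.70) in treated versus model, -4.42 (SE 0.76) in treated versus control and -2.06 (SE 0.69) in model versus control. Mup21 therefore stood at a mean of 14.9 ± 3.48 CPM in treated against 319 ± 152 CPM in control livers (SD, n = 3 each), a 21.4-fold difference. In the same comparison the difference was 3.72-fold for its close relative Mup3.

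Mup1, a copy of the common type, was at 231, 1177 and 276 CPM in the treated libraries. It was at 5388, 3799 and 2486 CPM in the model libraries and at 1372, 14312 and 12633 CPM in the control libraries. Each treated library lay below every model and control library, but control replicate 1 was below all 3 model libraries and far below the other control libraries. The log2 fold change of Mup1 was -2.79 (SE 1.04) in treated versus model, -4.07 (SE 1.10) in treated versus control and -1.28 (SE 0.99) in model versus control. Without control replicate 1 the value in model versus control was -1.79, and without control replicate 2 it was -0.85. The coefficient of variation of Mup1 within the control group was 74.5%, against 6.63% for Mup3.

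Mup7 is a near-identical copy of Mup1 that lies nearer the start of the cluster. It was at 400, 54.1 and 61.1 CPM in the treated libraries, 1180, 809 and 2161 CPM in the model libraries, and 945, 5544 and 6001 CPM in the control libraries. Control replicate 1 of Mup7 fell within the range of the model group, whereas for Mup1 it lay below that range, and the treated group was below both others. The log2 fold change of Mup7 was -3.01 (SE 1.10) in treated versus model, -4.60 (SE 1.18) in treated versus control and -1.59 (SE 1.04) in model versus control. Without treated replicate 1, the highest treated library for this gene, the first value was -4.59 and the second was -6.18. In the deposited transcript table, control replicate 2 carried 4221 FPKM on the 1033-base Mup7 transcript and 0 on the 927-base one, and control replicate 3 carried 4.78 and 5366 FPKM. The deposited FPKM of Mup7 thus lay on different transcripts in different libraries of one group. For Mup1 in treated replicate 3, likewise, the usual main transcript was listed at 0 and a 776-base transcript at 302 FPKM. Whether the assignment of reads or the use of transcripts differed was not tested.

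**Figure D1:**
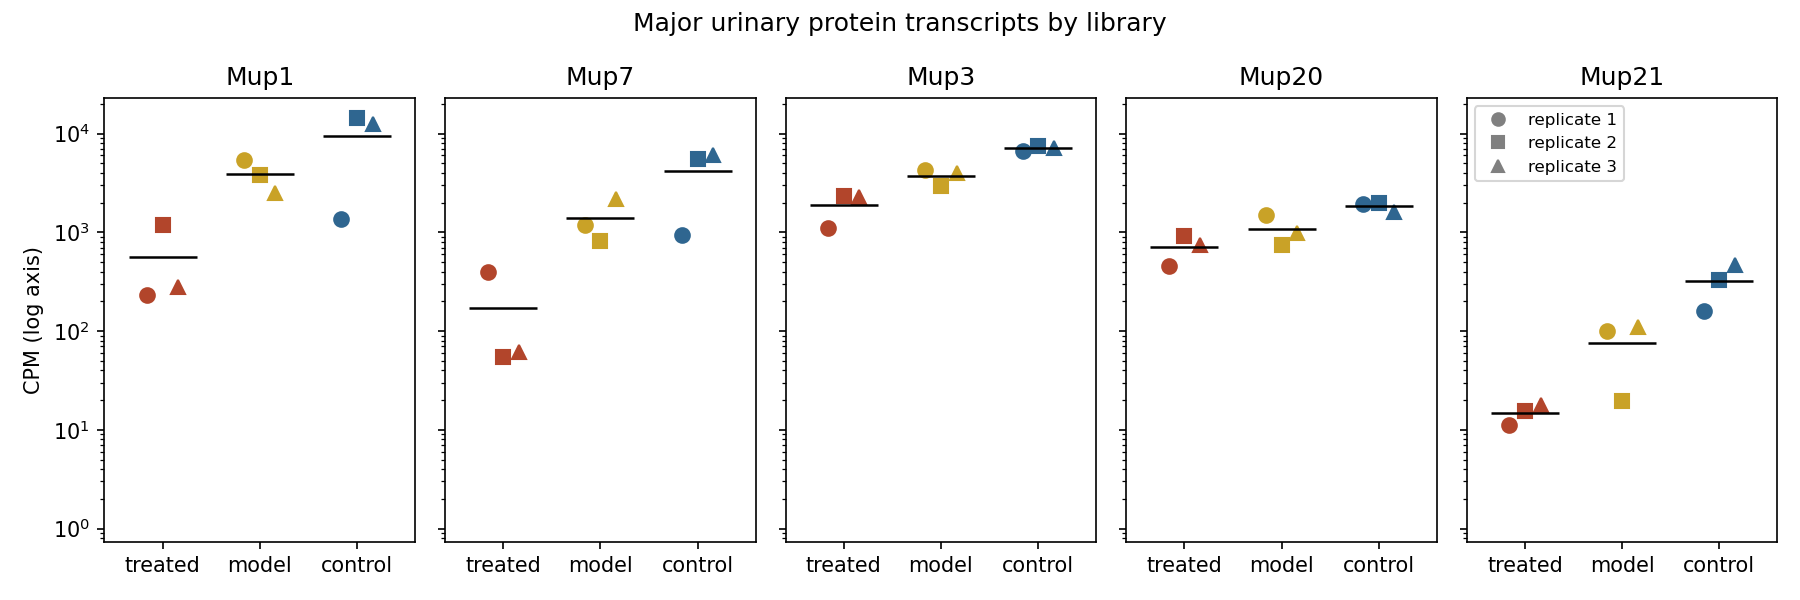
CPM of each gene (log axis) in the treated, model and control libraries, with 1 point per library (circle, square and triangle for replicates 1, 2 and 3) and a line at the group mean. The groups of Mup3 and of Mup21 do not overlap, while control replicate 1 of Mup1 (1372 CPM) and Mup7 (945 CPM) sits far below the other control libraries.

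The sum of the 5 genes is given beside them, although Mup1 and Mup7 each have 14 close copies outside it, with which reads could be exchanged. The sum was 2209, 4489 and 3365 CPM in the treated libraries, 12395, 8319 and 9760 CPM in the model libraries, and 10987, 29720 and 27788 CPM in the control libraries. Treated livers were below all others, and model and control overlapped through control replicate 1. The log2 ratio of the group means was -1.60 (SE 0.33) in treated versus model, a 3.03-fold difference, and -2.77 (SE 0.47) in treated versus control, a 6.81-fold difference. In model versus control it was -1.17 (SE 0.41), and -1.50 (SE 0.18) without control replicate 1. Without model replicate 1 it was -1.43 (SE 0.31) in treated versus model and -1.34 (SE 0.39) in model versus control.

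Expressed as a share of the library, the 5 genes took 0.253%, 0.485% and 0.353% of all counts in treated replicates 1 to 3, 1.18%, 0.830% and 0.947% in the model libraries and 1.07%, 2.69% and 2.64% in the control libraries. The exact binomial 95% intervals are narrow at this depth, for example 0.251% to 0.254% in treated replicate 1 and 1.07% to 1.08% in control replicate 1. They treat estimated counts as tallies and cover counting error alone, because no molecular identifiers are described. The spread between libraries of a group was thus many times the counting error.

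The groups separated when all 21 numbered Mup genes were summed. Together they took 0.739%, 3.30% and 2.37% of counts in the treated libraries, 4.38%, 4.27% and 4.32% in the model libraries and 4.995%, 8.63% and 7.20% in the control libraries. No group overlapped another, and the model libraries agreed within 1.08 times in CPM. The log2 ratio was -1.16 (SE 0.52) in treated versus model, -1.90 (SE 0.57) in treated versus control and -0.74 (SE 0.25) in model versus control. The difference was thus smaller for the family than for the 5 chosen genes in each comparison, and treated replicate 1, with 6460 CPM, was far below treated replicates 2 and 3, with 30527 and 22549 CPM.

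**Figure D2:**
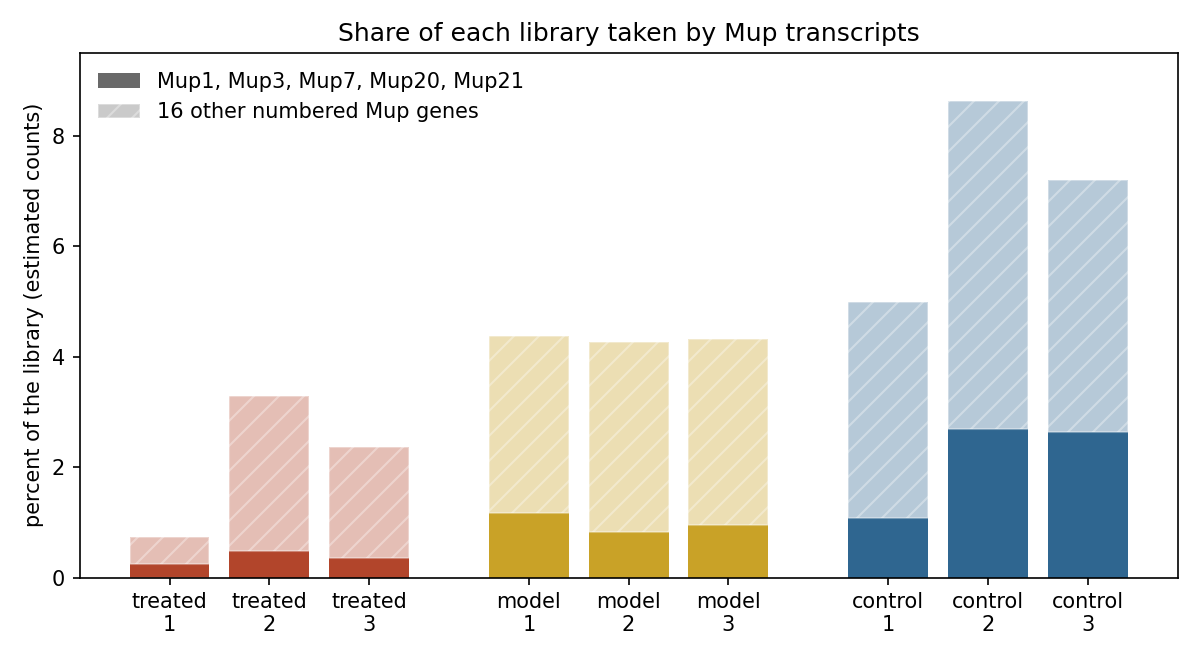
Percent of the estimated counts of each library held by the 5 genes (solid) and by the 16 other numbered Mup genes (hatched), for treated, model and control libraries. The stacked bars run from 0.739% to 3.30% in treated, 4.27% to 4.38% in model and 4.995% to 8.63% in control livers.

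The other 16 copies, most of which share reads with Mup1 and Mup7, mostly had fitted values in the same direction. Their fitted fold change was below 0 in 14 of 16 genes in treated versus model, in 16 of 16 in treated versus control and in 16 of 16 in model versus control. Median log2 fold changes were -1.15, -1.96 and -0.66 in that order, with Mup5 set at its bound from a floor of 3 counts per library. For comparison, the median over the 18113 genes tested was 0.01, -0.01 and -0.00. With edgeR's quasi-likelihood test and Benjamini-Hochberg adjustment, 1 of the 16 was called lower in treated versus model (Mup2, adjusted p = 0.0331) and 3 in treated versus control (Mup2, Mup6 and Mup8, adjusted p = 0.00391, 0.0137 and 0.0232). In treated versus control DESeq2 called 12 and limma-voom 10, and edgeR without treated replicate 1 called 6. The call of Mup2 versus model was lost without treated replicate 3, model replicate 3 or any single control library. By edgeR 0 were called in model versus control, where 1 had an unadjusted p under 0.05, DESeq2 called 1 and limma-voom 0.

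Mup12 carried the highest per-length level of the family, with 1490, 9039 and 5699 FPKM in treated, 10767, 12185 and 9325 FPKM in model and 9867, 13199 and 13491 FPKM in control livers. Mup12 was therefore low in treated replicate 1 above all, and its model and control libraries overlapped. Mup5 was listed at 0 in every model library, at 0, 362 and 0 CPM in the treated libraries and at 343, 487 and 0 CPM in the control libraries, so that no fold change is given for it. Fitted as 1 row, the 16 copies had a log2 fold change of -1.06 (SE 0.57, adjusted p = 0.319) in treated versus model, -1.64 (SE 0.58, adjusted p = 0.0999) in treated versus control and -0.58 (SE 0.57, adjusted p = 0.746) in model versus control by edgeR. That row was added after the data were seen, and it passed the threshold in none of the 3 comparisons.

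Per transcript length, Mup3 was the highest of the 5 genes in each group. Its mean was 1707 ± 574 FPKM in treated, 2984 ± 479 FPKM in model and 5477 ± 177 FPKM in control livers (SD, n = 3 each), which placed it 39th, 28th and 13th among all genes. In control livers Mup1 ranked 20th, Mup7 29th, Mup20 47th and Mup21 127th. The ranges of Mup1, Mup7 and Mup20 overlapped there, since Mup1 and Mup7 had 743 and 784 FPKM in control replicate 1, and those of Mup1 and Mup3 overlapped as well. In model livers the order of the means was Mup3, Mup1, Mup7, Mup20 and Mup21, and each of the first 4 overlapped its neighbour. In treated livers Mup20 came next after Mup3, at rank 76, and Mup1, Mup7 and Mup21 had moved to ranks 138, 298 and 1735. The deposited gene value of Mup1 is lower than that of its main transcript (7235 against 12065 FPKM in control replicate 2), so ranks depend on how the authors set gene length.

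The make-up of the 5-gene sum, in the deposited values, also differed between libraries. Mup3 held 50.03% to 66.6% of the summed FPKM of the 5 genes in treated livers and 38.7% to 43.5% in model livers. In control livers it held 60.2% in replicate 1 and 29.3% and 29.0% in replicates 2 and 3. Control replicate 1 thus resembled the treated libraries in this share, although its Mup3 level was above that of all treated and model libraries, and Mup1 and Mup7 were low there. The part of the division of Mup1 and Mup7 reads among close copies in these shares was not tested.

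**Figure D3:**
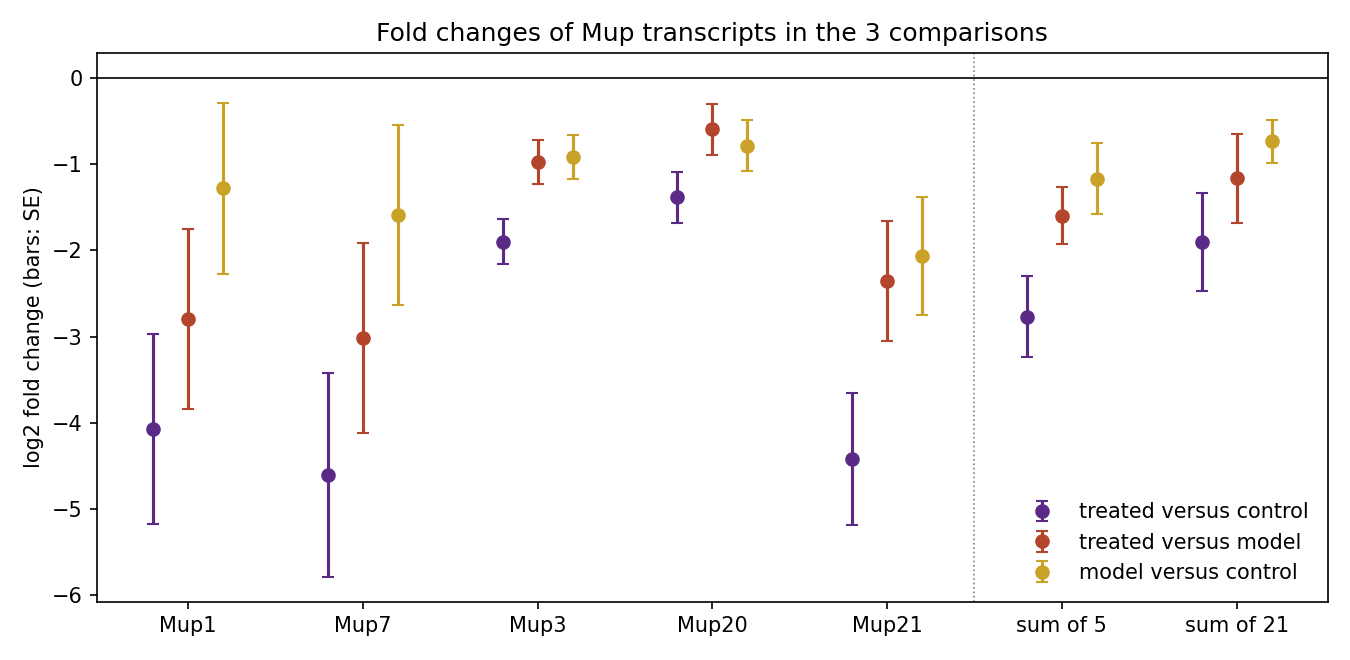
Log2 fold change with SE of each gene, and log2 ratio of the sum of the 5 genes and of all 21 numbered genes, in treated versus control, treated versus model and model versus control. The SE of a gene comes from the edgeR fit to all libraries, and that of a sum from the libraries of the groups compared. Values run from -0.60 for Mup20 in treated versus model to -4.60 for Mup7 in treated versus control, with wide bars for Mup1 and Mup7.

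Among all genes tested, 4.46% were called lower in treated versus model, 8.48% in treated versus control and 0.596% in model versus control. Of the 5 Mup genes, 1 (Mup3) was called lower in treated versus model, 5 in treated versus control and 0 in model versus control by edgeR, and since the genes were chosen on these libraries nothing is read from those counts. In treated versus model DESeq2 called 4 (all but Mup20) and limma-voom 3 (Mup1, Mup3 and Mup7), and in treated versus control each called 5. In model versus control 3 had an unadjusted p under 0.05, DESeq2 called 2 and limma-voom 0. The 5 calls of treated versus control became 3, always Mup3, Mup20 and Mup21, without treated replicate 3, without any single model library or without control replicate 2 or 3. The call of Mup3 in treated versus model was lost without treated replicate 3, model replicate 1, model replicate 3 or any single control library, and without model replicate 2 Mup21 was called as well. In treated versus control 4 were called without treated replicate 1 (all but Mup1) or 2 (all but Mup7), and in model versus control Mup3 was called without treated replicate 1. Libraries did not overlap, with the first group lower, for 4 of 5 genes in treated versus model and 5 of 5 in treated versus control. In model versus control this held for 3 of 5. Over all genes the shares were 15%, 18% and 10.2% in that order. Because the 5 genes were chosen on these libraries, nothing is read from these counts or from the calls by other tools and settings.

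Averaged over the groups, Mup3, Mup20 and Mup21 varied less between libraries than Mup1 and Mup7. The mean coefficient of variation over the 3 groups was 20.4% for Mup3, 26.4% for Mup20 and 45.2% for Mup21, against 69.0% for Mup1 and 77.6% for Mup7. In the model group the order differed, with 64.6% for Mup21 against 50.5% for Mup7 and 37.3% for Mup1. Across all 21 genes the pattern was not general, with a median of 45.2% in the 5 genes with at least 50% unique windows and 46.5% in the other 16. Mup5, with zeros in part of its groups, and Mup6, with at most 106 counts in a library, were distinct in sequence and spread widely.

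**Figure D4:**
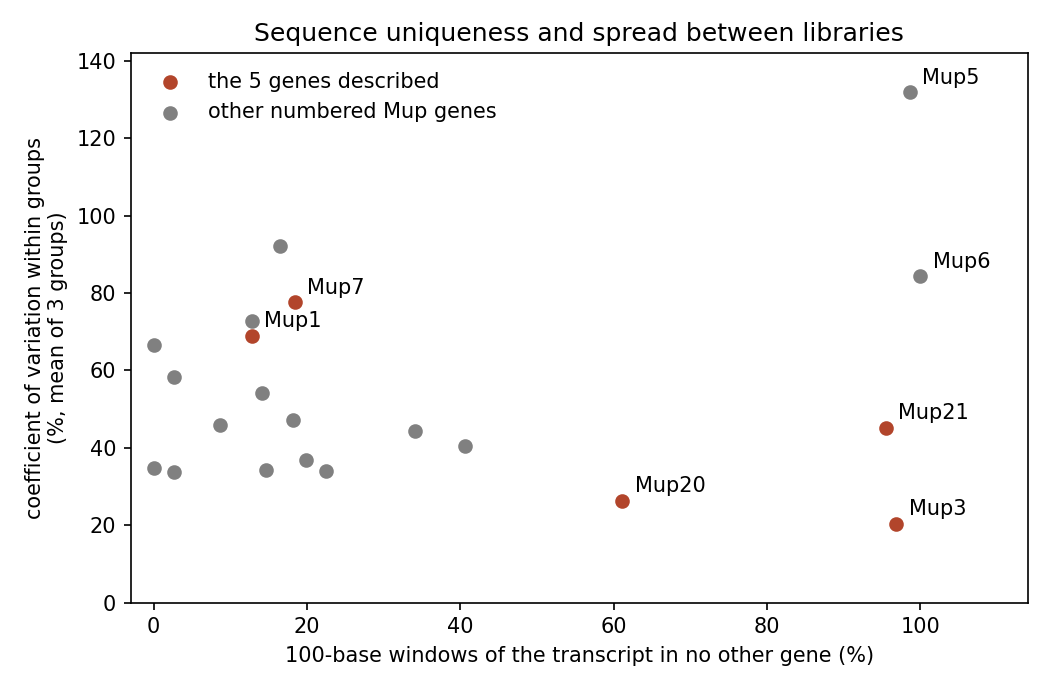
For each of the 21 numbered Mup genes, the percent of 100-base transcript windows found in no other gene (x axis) against the coefficient of variation between libraries, averaged over groups that have a count (y axis). Mup3, Mup20 and Mup21 sit at the lower right, Mup1 and Mup7 at the upper left, and Mup5 and Mup6 are distinct in sequence with a wide spread.

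Across the 9 libraries, which fall into 3 groups, Mup3 followed Mup20 with r = 0.96 and Mup21 with r = 0.94 on log2 (CPM + 1), and Mup1 followed Mup7 with r = 0.80. The lowest value was that of Mup7 with Mup20, at 0.60. These values share the differences between groups and are descriptions. The genes most like the summed level, among 9313 others with a mean of at least 5 CPM, were St6galnac6 (r = 0.98), Ido2 (0.98), Retreg2 (0.97), Agpat2 (0.97) and Prr14 (0.97), and the least like were Erh, Nudt18 and Arpc5, each with r = -0.99. St6galnac6, a sialyltransferase, was at 30.8 CPM in treated, 43.1 CPM in model and 50.3 CPM in control livers on average, so its range was far smaller than that of the Mup genes.

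RefSeq's promoter table, on GRCm38.p6, held 14 numbered Mup genes, among them Mup3, Mup7 and Mup21. The 250 bases before the RefSeq start of Mup3 (chr4:62087318-62087567, minus strand) and of Mup21 (chr4:62150842-62151091, minus strand) are shown because both genes followed each other across libraries. For both genes the RefSeq start lies inside the gene span of the files given above, so the last bases of each stretch, with the run TATATAAG, fall within that span. Capitals mark TATATAAG, a TATA-like run, and TGTTCT, the reverse complement of AGAACA, one arm of the element bound by the glucocorticoid receptor.

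Mup3: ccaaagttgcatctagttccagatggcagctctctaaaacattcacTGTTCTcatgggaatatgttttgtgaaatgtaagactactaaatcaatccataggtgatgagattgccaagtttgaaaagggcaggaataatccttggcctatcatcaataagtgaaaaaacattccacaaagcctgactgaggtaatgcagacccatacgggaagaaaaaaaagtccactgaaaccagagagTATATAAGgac
Mup21: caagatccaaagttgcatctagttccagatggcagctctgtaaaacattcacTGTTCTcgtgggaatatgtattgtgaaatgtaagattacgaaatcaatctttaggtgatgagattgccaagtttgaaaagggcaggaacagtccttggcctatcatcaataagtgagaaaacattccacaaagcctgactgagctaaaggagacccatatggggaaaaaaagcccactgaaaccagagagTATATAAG

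Over the 300-base windows of the table, which add 50 bases after the start, the promoters of Mup3 and Mup21 were 92.9% identical over 297 aligned bases, and those of Mup3 and Mup7 85.0% over 214. TATATAAG was found in 11 of the 14 Mup windows and in 1.01% of 32851 promoters, on either strand. AGAACA was in the windows of Mup3 and Mup21 alone among the 14, and in 19.0% of all promoters. The STAT motif TTCNNNGAA was in 0 of 14 Mup windows and in 8.30% of all, and the C/EBP-like motif TTGCNNAA in 0 of 14 and in 10.8%. The 2 motifs marked do not overlap each other.

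The known regulators of Mup transcription were read from lists of other genes. Of 17 genes of growth hormone and STAT5 signalling, 1 rose and 1 fell in treated versus model, 4 rose and 3 fell in treated versus control, and 0 were called in model versus control by edgeR (4 with an unadjusted p under 0.05, 2 by DESeq2 and 0 by limma-voom). Among all genes tested, 5.21% rose and 4.46% fell in treated versus model, 9.36% rose and 8.48% fell in treated versus control, while 9.66%, 17.8% and 1.12% were called in either direction in treated versus model, treated versus control and model versus control. The list's median log2 fold change was 0.06, -0.19 and -0.09 in the same order. In treated versus model the list had 1 higher and 4 lower calls by DESeq2 and by limma-voom. The same counts came from edgeR on those 2 groups alone and without control replicate 2. Without treated replicate 3 the list had 2 and 2 in treated versus control by edgeR. Bcl6, a repressor that opposes STAT5 in liver, rose to 46.3 ± 0.909 CPM in treated livers, against 11.5 ± 2.40 CPM in model livers (adjusted p = 0.000968) and 20.4 ± 7.31 CPM in control livers (adjusted p = 0.00649, edgeR).

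Igfals, which encodes a partner of circulating insulin-like growth factor and depends on growth hormone, fell to 50.6 ± 6.88 CPM in treated livers, against 118 ± 8.25 CPM in model livers (edgeR adjusted p = 0.00243) and 134 ± 37.2 CPM in control livers (edgeR adjusted p = 0.000552). Both calls of Igfals and both of Bcl6 were kept in all 17 alternatives. Stat5b, the main STAT of the growth hormone response in liver, fell to 40.1 ± 2.78 CPM in treated livers, against 62.7 ± 9.45 CPM in control livers (edgeR adjusted p = 0.00724), and Ghr, the growth hormone receptor, fell to 263 ± 47.0 CPM, against 397 ± 55.3 CPM (edgeR adjusted p = 0.0223). The call of Ghr was lost in 6 of 17 alternatives, among them without treated replicate 1 or 3 and without control replicate 1 or 2.

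The feedback inhibitors Socs2 and Cish are transcribed in response to STAT5. Socs2 was at 12.8 ± 6.29 CPM in treated, 62.3 ± 19.8 CPM in model and 37.4 ± 25.3 CPM in control livers, and Cish at 6.08 ± 0.230, 27.7 ± 10.1 and 21.6 ± 14.7 CPM in that order. By edgeR neither was called in any comparison (adjusted p = 0.107 for Socs2 and 0.0602 for Cish in treated versus model). In treated versus model both were called lower by DESeq2 (adjusted p = 0.0099 for Socs2 and 0.00256 for Cish), by limma-voom (0.0424 and 0.0452), by edgeR on those 2 groups alone (0.0306 and 0.00169) and by edgeR without control replicate 2 (0.0182 and 0.00239), and Cish also without control replicate 3 (0.0367). In treated versus control both were called lower without control replicate 2 (edgeR adjusted p = 0.0268 for Socs2 and 0.00209 for Cish), and Cish by DESeq2 (adjusted p = 0.0114). The phosphatase gene Ptpn6 rose in treated versus control (log2 fold change 0.53, edgeR adjusted p = 0.015). That call of Ptpn6 was lost without treated replicate 3 or control replicate 2.

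Of 24 transcription factors and receptors listed as regulators of Mup genes, with Bcl6 among them, 3 rose and 9 fell in treated versus model, 2 rose and 13 fell in treated versus control, and 1 fell in model versus control. The median log2 fold change of the list was -0.39, -0.44 and -0.10. Without model replicate 3 the calls in treated versus model were 1 higher and 6 lower. Cebpa, a factor of the differentiated hepatocyte, fell to 126 ± 19.4 CPM in treated livers, against 320 ± 53.0 CPM in model livers and 268 ± 10.9 CPM in control livers (edgeR adjusted p = 0.000521 and 0.000692). Nfib, a nuclear factor, fell in both comparisons of treated livers too (log2 fold change -0.69 versus model and -0.99 versus control, edgeR adjusted p = 0.000997 and 6.54e-05). The calls of Cebpa and Nfib were kept in all 17 alternatives.

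Cebpb, a factor of the acute phase response, rose in treated livers (log2 fold change 1.22 versus model and 1.11 versus control, edgeR adjusted p = 0.0181 and 0.0158). Its call versus model was lost without model replicate 1 or 3, and that versus control without control replicate 2. Rora fell to 34.9 ± 2.59 CPM in model livers, against 54.5 ± 6.35 CPM in control livers (edgeR adjusted p = 0.0206). That call of Rora was lost without model replicate 1 or 2 or control replicate 2, and its fall in treated versus control (edgeR adjusted p = 0.0408) was lost in 11 of 17 alternatives. Hnf4a, a master factor of hepatocytes, rose in treated versus model (log2 fold change 0.38, edgeR adjusted p = 0.0499), which did not hold in 13 of 17 alternatives, and was at 653 ± 31.4 CPM in treated and 637 ± 40.6 CPM in control livers. Zhx2, a factor that influences Mup levels between strains, was at 10.9 ± 2.19 CPM in treated, 11.5 ± 2.05 CPM in model and 12.9 ± 2.84 CPM in control livers and was not called in any comparison (edgeR adjusted p = 0.866, 0.472 and 0.814 for treated versus model, treated versus control and model versus control).

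Mup genes belong to the male-biased genes of mouse liver, and 28 others with that bias were read beside them. In treated versus control 1 rose and 9 fell, in treated versus model 1 rose and 1 fell, and in model versus control 0 were called by edgeR (3 with an unadjusted p under 0.05, 2 by DESeq2 and 0 by limma-voom). The list's median log2 fold change was -0.78, -0.54 and -0.29 in that order. In treated versus model DESeq2 called 2 higher and 10 lower and limma-voom 2 and 3, and in treated versus control they called 1 and 15 and 1 and 9. The 9 falls became 3 without treated replicate 1 or control replicate 2 and 5 without model replicate 2 or control replicate 1. The call count in treated versus model was 1 higher and 0 lower without treated replicate 1 or model replicate 3, and 1 and 3 without control replicate 3. The steroid hydroxylase gene Cyp2d9 fell to 1032 ± 106 CPM in treated livers, against 1963 ± 332 CPM in control livers (edgeR adjusted p = 0.00859), and the sulfotransferase gene Sult2a8 to 245 ± 118 CPM, against 707 ± 38.3 CPM (edgeR adjusted p = 0.015). Cyp2u1, a cytochrome P450, fell in treated versus control (log2 fold change -2.43, edgeR adjusted p = 0.00538) and in treated versus model (-2.04, edgeR adjusted p = 0.0193). The last call was lost without any single treated library and without model replicate 3, and that of Sult2a8 without control replicate 2. Bcl6 was the gene that rose.

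Of 29 female-biased genes tested, 1 rose in treated versus model by edgeR. In treated versus control 4 rose and 2 fell, and in model versus control 1 rose. By DESeq2 3 rose and 1 fell in treated versus model, 5 and 5 in treated versus control and 4 and 2 in model versus control. By limma-voom 1 rose in treated versus model, 5 rose and 3 fell in treated versus control, and 0 were called in model versus control. The median log2 fold change was 0.32, 0.29 and -0.29. In treated versus model 3 rose and 1 fell without control replicate 1, and 2 rose without control replicate 3. Atp6v0d2, which encodes part of the vacuolar proton pump, rose in each comparison and was at 32.4 ± 2.27 CPM in treated, 6.33 ± 1.65 CPM in model and 2.48 ± 0.251 CPM in control livers (edgeR adjusted p = 0.00011 versus model and 5.16e-06 versus control, and 0.0113 in model versus control). Cyp2b9 and Cyp2a4, cytochromes P450 of female liver, rose in treated versus control (log2 fold change 2.16 and 4.502, edgeR adjusted p = 0.00158 and 0.0145). Lifr, a cytokine receptor, and Cyp2c69 fell there (-1.02 and -3.01, edgeR adjusted p = 0.0156 and 0.0455). The call of Cyp2c69 was lost in 11 of 17 alternatives, that of Lifr without treated replicate 2, and that of Cyp2a4 without control replicate 2 or 3. For Atp6v0d2 the call in model versus control was lost with limma-voom (limma-voom adjusted p = 0.0599).

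Other lipocalins of the liver moved in both directions. Of 11 tested, 1 rose in treated versus model, 3 rose and 2 fell in treated versus control, and 0 were called in model versus control by edgeR (5 with an unadjusted p under 0.05, 4 by DESeq2 and 2 by limma-voom). Their median log2 fold change was 0.05, -0.10 and 0.06. Lcn2, an iron-withholding lipocalin of the acute phase, rose to 609 ± 162 CPM in treated livers, against 70.6 ± 13.6 CPM in model livers and 11.4 ± 7.39 CPM in control livers (edgeR adjusted p = 0.014 and 0.00102). Its call versus model was lost without model replicate 1 or 3. The neutrophil markers, at 4.24 to 101 CPM in treated against 1.27 to 2.88 CPM in control livers, were higher in treated than in control livers, as Lcn2 was. Against the model libraries, at 8.14 to 17.8 CPM, the treated libraries overlapped, with a median of 16.3 CPM in both groups. The part of neutrophils in the level of Lcn2 was not tested. Orm1 and Orm2, acid glycoproteins of the acute phase with close sequences, rose in treated versus control (log2 fold change 0.66 and 3.18), and Rbp4, the retinol carrier, and C8g, a complement subunit, fell (-0.67 and -0.73), with edgeR adjusted p = 0.00885, 0.00712, 0.00802 and 0.00967.

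Transcripts of abundant secreted hepatocyte proteins were read beside the Mup genes, and secretion itself was not measured. Of 34, 8 fell in treated versus model, 2 rose and 15 fell in treated versus control, and 2 rose in model versus control, with median log2 fold changes of -0.26, -0.26 and -0.00. The 8 falls became 1 without treated replicate 1 or model replicate 1 and 2 without treated replicate 2 or model replicate 2 or 3, and the 15 became 8 without treated replicate 1 and 9 without control replicate 3. The antitrypsin genes Serpina1a, Serpina1b and Serpina1c, near-identical copies whose division is uncertain, fell in treated versus control by 0.82, 0.82 and 0.91 on the log2 scale (edgeR adjusted p = 0.00107, 0.00112 and 0.00102), and Apoa2, an apolipoprotein of high-density lipoprotein, by 0.75 (edgeR adjusted p = 0.00656). In treated versus model the same 4 genes were called lower by edgeR (adjusted p = 0.0159, 0.0112, 0.0349 and 0.0242). Of those calls, that of Serpina1b was kept in all 17 alternatives, and those of Serpina1a, Serpina1c and Apoa2 were lost in 3, 8 and 7, each of them without treated replicate 1 and without model replicate 1.

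Haptoglobin (Hp) and hemopexin (Hpx), which bind free hemoglobin and heme, were the secreted proteins that rose. Hp was at 6825 ± 446 CPM in treated, 6371 ± 455 CPM in model and 3578 ± 449 CPM in control livers, and Hpx at 8563 ± 1221, 6145 ± 1291 and 3092 ± 402 CPM. Both rose in treated versus control (edgeR adjusted p = 0.000686 for Hp and 0.000413 for Hpx) and in model versus control (edgeR adjusted p = 0.0127 and 0.0287). In model versus control the call of each was lost without model replicate 2 or 3, and that of Hpx also without any single control library. The fold changes of the 5 Mup genes in treated versus control, from -1.38 to -4.60, all lay below that of each secreted protein of this list, the lowest of which was -0.91. Because the 5 genes were chosen with their levels in these libraries known, nothing is read from that order.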

How the data were processed

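RNA was purified with TRIzol, per the labels' protocols. The submitters' processing notes name HISAT2 without a version. For the quantifier, strand setting, annotation and read length nothing is given in the sources used here. From the authors come estimated counts per gene, deposited as whole numbers. FPKM for genes and transcripts were likewise deposited by the authors. Gene IDs were found in GENCODE M21 (GRCm38) for 27859 of 27945 genes, 25083 with the same start and end.

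The fit used edgeR 4.0.16 under R 4.3.3, with TMM, the quasi-likelihood test and robust dispersion estimates. All 9 libraries entered it (56440871 to 60665156 counts each), and filterByExpr (minimum count 10, minimum total 15) left 18113 genes. Calls are those with an adjusted p (Benjamini-Hochberg) below 0.05. Levels are means ± SD of CPM on TMM-scaled library sizes, and the summed level is a log2 ratio of group means with an SE from the libraries. The SE of a single gene is of another kind. It is the size of the log2 fold change divided by the square root of the F statistic of the fit. Members and lists were chosen with earlier results of these data known. Named are the 5 genes, the other numbered Mup genes, 8 regulators whatever their test, up to 3 called genes of smallest p per list, direction and comparison, and the 5 genes most and 3 least like the summed level. Of the genes this rule selects, 2 are not reported here, though list counts include them.

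Alternatives were other scalings, no filter, DESeq2 1.42.0, limma-voom (limma 3.58.1), a replicate block, only the groups compared and each library left out. The fit was tested on simulated counts. These took the same mean and dispersion per gene in all groups apart from the planted changes. They hold neither the real differences between groups nor reads shared between copies, so the comparisons differ there mainly by random draw. In treated versus control (17505 genes) it called 52 of 100 genes with a 2-fold and 89 of 100 with a 4-fold change, and 8 falsely. In treated versus model (17477 genes) these were 52, 83 and 10, and in model versus control (17466 genes) 45, 91 and 4.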

Additional observations from a re-analysis of the deposited data

How the results depend on the processing

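The fold changes of the 5 Mup genes and the log2 ratio of their sum were below 0 under every alternative run. With all 21 numbered genes in place of the 5, the log2 ratio was -1.16 in treated versus model and -1.90 in treated versus control, against -1.60 and -2.77 for the 5. With 1 library left out, the ratio of the 5 ranged from -1.87 to -1.37 in treated versus model, -3.10 to -2.53 in treated versus control and -1.50 to -0.93 in model versus control. The number of genes called over all 18113 was 1750 in treated versus model, 3232 in treated versus control and 202 in model versus control. DESeq2 called 2742, 4191 and 871. With 1 library left out the counts ranged from 882 to 1660, 2169 to 2997 and 54 to 213. The count moved by over 1.5 times in treated versus model without treated replicate 1 (995) or 3 (1093) or model replicate 1 (882) or 3 (972), and in model versus control without model replicate 1 (109), 2 (54) or 3 (80) or control replicate 2 (92) or 3 (82). Scaling by library totals without TMM shifted the median log2 fold change of all genes to 0.17 in treated versus model and 0.20 in treated versus control, and split the calls into 1639 higher and 410 lower and into 3019 and 819, against 943 and 807 and 1696 and 1536 with TMM. Of the 34 secreted protein genes, 2 and 7 then fell. With the replicate block the counts were 1244, 2609 and 120, and of the 5 Mup genes 0, 3 and 0 were called. Across genes, the deviations of same-numbered libraries from their group means had r from -0.17 to 0.18. The labels state no pairing, and these values cannot decide it, because a batch shared by number could touch only some genes. Log2 fold changes that turned direction belonged to values not called. Zhx2 in treated versus model was 0.0917 by library totals and ranged from -0.250 to 0.0720 with 1 library left out (0.0403 without treated replicate 3). Zhx2 in model versus control ranged from -0.317 to 0.0303, Cish from -0.0705 to 0.942, Igfals from -0.339 to 0.0577, Cebpb from -0.328 to 0.0278 and Apoa2 from -0.292 to 0.0351. Orm1 in treated versus model ranged from -0.0159 to 0.117, and Hnf4a in treated versus control from -0.00431 to 0.0874. Of the calls of list genes that the naming rule selects, 7 of 14 were kept under all alternatives in treated versus model, 21 of 30 in treated versus control and 0 of 4 in model versus control. The cause of these changes was not tested.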
